A study of Homo sapiens with 6 samples.

Results

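The 10 genes described here encode helix-loop-helix repressors of transcription: BHLHE40 and BHLHE41, the hairy-related HES1, HES4, HES6 and HEY1, and the inhibitors of DNA binding ID1, ID2, ID3 and ID4. They were read from 22 of the 54613 probe sets (groups of probes for 1 transcript) of an Affymetrix Human U133 Plus 2.0 array other than controls, namely every probe set whose only gene symbol in the platform annotation was 1 of the 10. A further 1 probe set, annotated to ID2 together with a related locus, was left out. Expression was measured in K562, an established human cell line from a chronic myelogenous leukaemia that carries the BCR-ABL1 fusion kinase. Both groups were K562 wells sampled after 3 h: 3 wells received the vehicle DMSO and 3 received 25 nM CA. The series title gives CA as cortistatin A, a steroidal alkaloid that inhibits CDK8 and CDK19, the kinases of the Mediator complex. The labels name 1 culture format, in which triplicate wells held 500000 to 800000 cells per mL at plating, and no other agent or genetic change. They do not say that the wells came from separate cultures, so the p values measure the spread between these wells. They also name 2 ways of isolating RNA, a column kit and TRIzol, without saying which well had which, so whether the method differed between the groups was not tested.

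Proteins of the BHLHE40 and HES/HEY families carry a basic region that contacts DNA at E-box or N-box sequences and a helix-loop-helix through which they pair, and they silence genes by recruiting corepressors. HES and HEY genes are the classical targets of Notch signalling, and HES1 is known to bind and repress its own promoter. ID proteins lack the basic region: they capture the E proteins TCF3, TCF4 and TCF12 and keep them, and partners such as the erythroid factor TAL1, off DNA, and their genes are well known targets of BMP and SMAD signalling. BHLHE40 and BHLHE41 also bind the E-boxes used by CLOCK and BMAL1 and so belong to the circadian clock.

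The promoters of the 3 genes with the largest differences between the groups are shown with their E-boxes and N-boxes marked. The E-box pattern used is general, and CACGTG, the form that BHLHE40 binds, is only part of it. Each run is the 250 bases before the gene's start, 5′ to 3′ on the plus strand, from RefSeq on GRCh38.p14. Capitals mark every E-box (CANNTG) and every N-box (CACNAG), both searched on both strands.
BHLHE40, chr3:4979187-4979436: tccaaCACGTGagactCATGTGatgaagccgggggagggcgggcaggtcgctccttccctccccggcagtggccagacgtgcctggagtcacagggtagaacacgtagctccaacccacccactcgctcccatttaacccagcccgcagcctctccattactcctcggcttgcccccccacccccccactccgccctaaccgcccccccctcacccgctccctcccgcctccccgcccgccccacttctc
HES1, chr3:194135898-194136147: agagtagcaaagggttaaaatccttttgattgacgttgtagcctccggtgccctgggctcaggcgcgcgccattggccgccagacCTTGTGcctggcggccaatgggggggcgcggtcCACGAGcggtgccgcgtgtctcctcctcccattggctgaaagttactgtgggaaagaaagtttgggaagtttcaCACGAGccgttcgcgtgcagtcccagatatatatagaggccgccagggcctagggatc
ID2, chr2:8681806-8682055: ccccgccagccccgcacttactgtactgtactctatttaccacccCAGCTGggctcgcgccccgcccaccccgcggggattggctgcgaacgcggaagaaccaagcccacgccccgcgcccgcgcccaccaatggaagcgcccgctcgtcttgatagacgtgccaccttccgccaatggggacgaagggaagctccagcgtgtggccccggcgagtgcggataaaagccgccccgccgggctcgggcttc

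The BHLHE40 window held 2 E-boxes, 245 and 234 bases before the start, of which the first was the palindrome CACGTG. BHLHE41 also held 1 CACGTG, 48 bases before its start, and the other 7 genes with a promoter in the table held none; among all 35114 promoter windows of this length 6.35% held it. The HES1 window held 3 N-boxes, at 165, 132 and 58 bases before the start, and 1 match to GTGGGAA, a sequence bound by the Notch effector RBPJ, at 85 bases. N-boxes were found in 32.0% of all windows and GTGGGAA in 5.43%, the latter also in HES4 at 77 bases. The ID2 window held 1 E-box, CAGCTG at 205 bases, and no CACGTG or N-box. E-boxes of any form were found in 61.8% of all windows. The GC-rich SMAD sequence GGCGCC (16.4% of all windows) and the CArG box (1.16%) were found in 0 of the 9 genes, and the STAT sequence TTCNNNGAA (6.57%) in 1, ID3. These letters describe the windows only.

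Values are RMA signals on the log2 scale, on which a difference of 1 is a doubling. Testing was limited to probe sets whose 6-array mean reached 3.49, the median of all such means, which kept 27307 probe sets. Of the 22 probe sets 13 were tested, covering 9 genes, and the 4 of BHLHE41 were all too dim. Each was compared between CA and DMSO by limma's moderated test, 2-sided, in 1 fit over all tested probe sets, and was called at a Benjamini-Hochberg adjusted p under 0.05. The genes were chosen on earlier results of this same contrast, that is on their differences between CA and DMSO: BHLHE40 was already called, and HES1 and ID2 were known to be higher in CA. The changes below are therefore a description, the adjusted p shows only where a probe set lies in the fit over the whole array, and neither is independent evidence.

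The array medians lay between 3.47 and 3.52 and every pair of arrays correlated at 0.997 across probe sets. Principal component 2 separated CA array 1 from the rest, at -19.05 against 0.34 to 7.20 for the other 5. All 7 erythroid and leukaemia line markers with a single-symbol probe set, among them HBE1, GATA1 and TFRC, were above the filter, with a mean of 8.99 to 9.06 in DMSO and 9.04 to 9.06 in CA. Among markers of other cell types, CD14, CD2, MS4A1, CDH1, COL3A1, CDH5 and VWF were below the filter. EPCAM, KRT8, KRT18, CD3D, LYZ and TUBB3 were bright in both groups. CD3E, CSF1R, SNAP25, CD79A, COL1A2, PECAM1 and COL1A1 were also above the filter, at 3.66 to 6.92 in DMSO. The 8 probe sets for the 3′ ends of added polyadenylated control RNAs averaged 8.24 to 8.37 in DMSO and 8.08 to 8.17 in CA (exact 2-sided permutation p = 0.1, the smallest that 3 against 3 allows). It is not given in the labels whether the controls were dosed by cell number or by RNA mass, so the scaled values below are given only as an alternative. Scaling the arrays to them would add 0.20 to every change and move the median over all tested probe sets from -0.01 to 0.19, while the 5′ ends would add 0.04. The actin 3′ signal exceeded its 5′ signal, a sign of RNA quality, by 1.40 to 1.49 in DMSO and by 1.14 to 1.31 in CA, with no overlap (exact 2-sided permutation p = 0.1). For GAPDH this excess was 0.62 to 0.65 in DMSO and 0.58 to 0.63 in CA, and the groups overlapped (exact permutation p = 0.2). The differences between the groups below ran alongside the lower actin excess in CA, whose part in them was not tested. Changes are given on the RMA scale, relative to the other transcripts. In bulk lysates more transcript in each cell and more cells holding it cannot be told apart.

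BHLHE40, which binds CACGTG and represses clock and differentiation genes, rose on the CA arrays. Its brighter probe set, 201170_s_at, read 8.02, 8.16 and 8.23 on the DMSO arrays and 8.97, 8.90 and 8.88 on the CA arrays. All CA arrays were above all DMSO arrays, and the gap between the groups was wider than the spread within either. The mean was 8.14 ± 0.11 (SD, n = 3) in DMSO and 8.92 ± 0.05 (SD, n = 3) in CA. This is a change of 0.78 (95% confidence interval 0.62 to 0.94), or 1.72-fold, with a limma adjusted p of 0.0235. By size it was the largest fitted rise among all tested probe sets.

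The dimmer BHLHE40 probe set, 201169_s_at, read 4.10, 3.94 and 4.37 in DMSO and 4.82, 4.74 and 4.78 in CA. Again the groups did not overlap, and the DMSO arrays scattered more than the CA arrays, with SDs of 0.22 and 0.04 (n = 3 each). Its difference of 0.64 (95% confidence interval 0.38 to 0.90), 1.56-fold, ranked 5 among the fitted rises, but its limma adjusted p was 0.168 and it was not called. Both BHLHE40 probe sets carry the suffix that marks probes shared by several transcripts, so no unshared probe set reads this gene here.

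The BHLHE40 call depended on every array. With each array left out in turn the brighter probe set kept a change of 0.72 to 0.83, but its limma adjusted p was 0.0984 to 0.174 and it was called in 0 of the 6 fits. Each of these fits called 0 rises among all tested probe sets, so the loss was not particular to BHLHE40. Without CA array 1, the one separated on component 2, the change was 0.75 (adjusted p = 0.115). With no filter on dim probe sets, which put 54613 in the fit, the change was the same and the limma adjusted p was 0.101. The reason for this higher adjusted p was not tested. With the replicate number added to the fit as a block, the change was again the same and the limma adjusted p was 0.360.

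BHLHE41, the close relative of BHLHE40 with the same DNA-binding preference, was dim on all arrays. Its 4 probe sets had means over the 6 arrays of 1.82 to 2.10, brighter than 8.59% to 18.1% of all probe sets. They differed by -0.19, 0.11, -0.02 and -0.06 between CA and DMSO. For the probe set at -0.19, 223185_s_at, the highest CA array was 2.12 and the lowest DMSO array 2.14, while the groups of the others overlapped. At 3′ control scaling its difference stood at 0.00. All 4 were below the filter and were not tested, so neither a change nor its absence is read for BHLHE41.

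**Figure D1:**
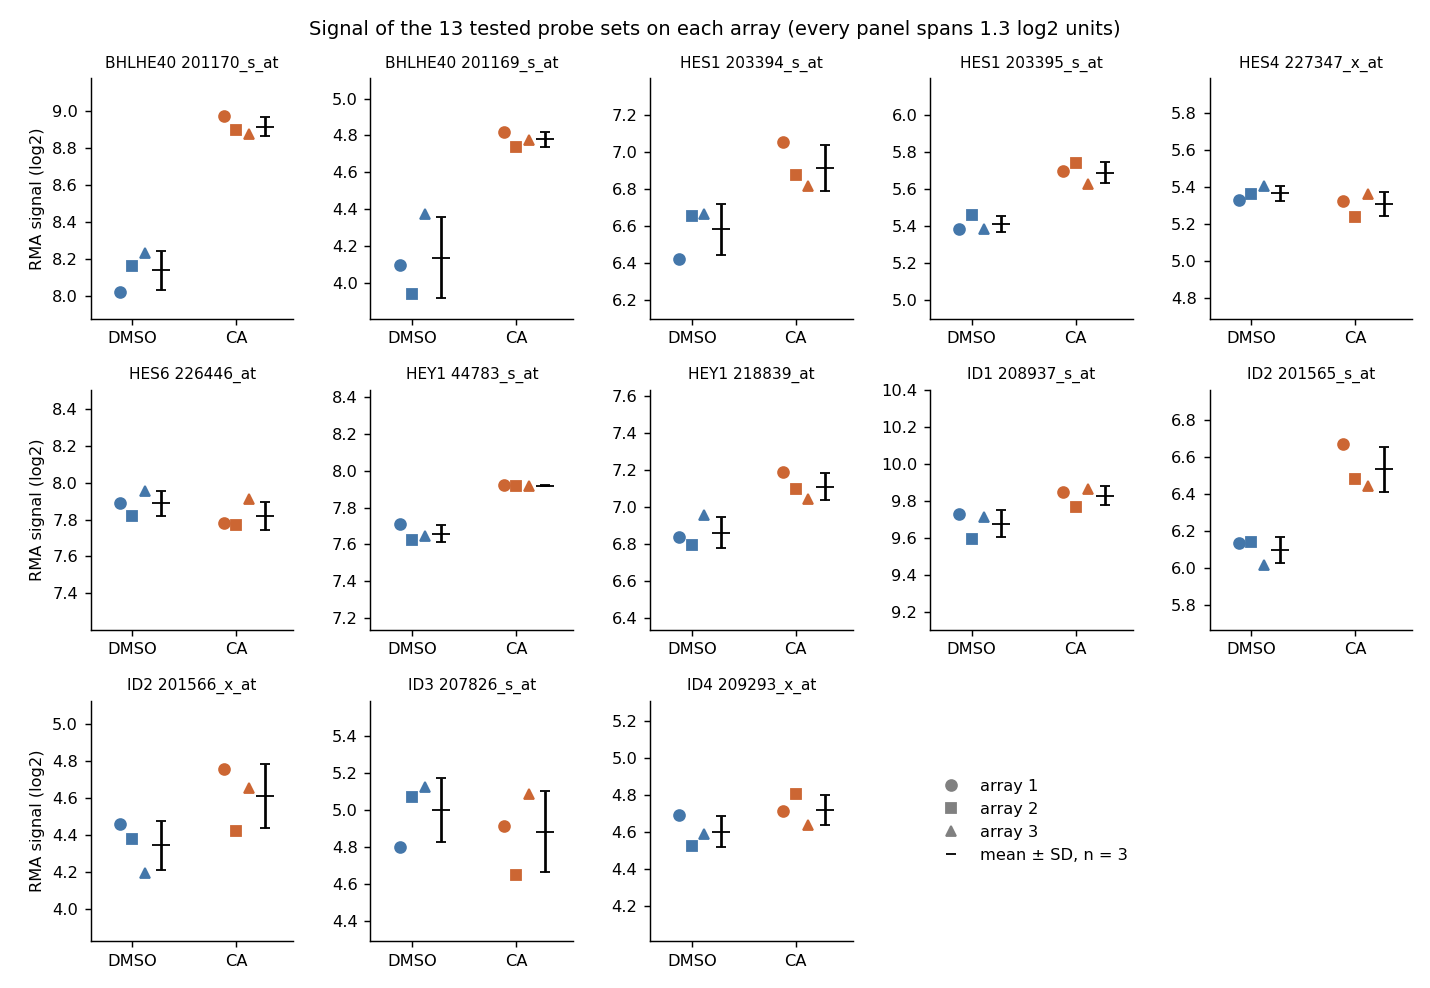
RMA signal (log2) of the 13 tested probe sets on each array, DMSO in blue and CA in orange, with array number shown by symbol and the mean ± SD (n = 3) beside the points; every panel spans the same range. The CA points lie above all DMSO points for both probe sets of BHLHE40, HES1 and HEY1, for ID1 and for ID2 201565_s_at, and overlap in the other 5 panels.

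Of the 13 tested probe sets 1, the brighter of BHLHE40, was called, against 0.0952% of all tested probe sets. In 8 of the 13, from 5 genes, all CA arrays were above all DMSO arrays, and in 0 all were below. Among all tested probe sets 7.09% had the CA arrays above and 8.52% below. At an unadjusted p under 0.05 there were 9, all higher in CA, where 4.55% of all tested probe sets were higher in CA at that p. The median change of the 13 was 0.26, and that of all tested probe sets was -0.01. With a prior variance that follows the signal 4 of the 13 were called, against 1.04% of all tested probe sets. With the filter at the 75th percentile 3 of 7 were called, against 1.19%. After scaling to the 3′ controls 9 of 13 were called, against 13.5%, and after scaling to the 5′ controls 2 of 13, against 0.103%. Since the genes were chosen from this contrast, nothing is read from these shares. Of the 13, 10 had a fitted difference above 0 and 3 below, and the 3 below (HES4, HES6 and ID3) were above 0 after 3′ control scaling.

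Among the HES and HEY genes, HES1, the main repressor downstream of Notch, stood higher in CA without being called. Its brightest probe set, 203394_s_at, read 6.42, 6.66 and 6.67 in DMSO and 7.05, 6.87 and 6.82 in CA. The groups did not overlap, with CA array 1 highest and DMSO array 1 lowest. The difference was 0.33 (95% confidence interval 0.11 to 0.55; limma adjusted p = 0.350), or 1.26-fold, and 0.26 without CA array 1.

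A second HES1 probe set, 203395_s_at, gave a tighter reading of nearly the same size. Its signals were 5.39, 5.46 and 5.39 in DMSO and 5.70, 5.74 and 5.63 in CA, with SDs of 0.04 and 0.06 (n = 3 each). The difference was 0.28 (95% confidence interval 0.16 to 0.40; limma adjusted p = 0.181). The third, 203393_at, was not tested: it averaged 2.42 over the 6 arrays and its groups overlapped, at 2.20 to 2.57 in DMSO and 2.42 to 2.50 in CA. The 3 probe sets thus placed HES1 at 3 signal levels, and the 2 bright enough to test differed by less than either interval.

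HEY1, a partner of HES1 downstream of Notch, had 2 tested probe sets that gave almost the same difference. The brighter, 44783_s_at, read 7.71, 7.62 and 7.64 in DMSO and 7.92, 7.92 and 7.92 in CA. The CA arrays were nearly identical and lay above all DMSO arrays. The difference was 0.26 (95% confidence interval 0.16 to 0.36; limma adjusted p = 0.161).

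The other HEY1 probe set, 218839_at, carries no shared suffix. It read 6.84, 6.79 and 6.95 in DMSO and 7.19, 7.10 and 7.04 in CA, again with no overlap. The difference was 0.25 (95% confidence interval 0.10 to 0.40; limma adjusted p = 0.328), or 1.19-fold, and 0.21 without CA array 1. It was 1 of 2 tested probe sets of the whole set without a shared suffix; the other was that of HES6.

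HES4 and HES6 showed no such shift. HES6, known as a factor that opposes HES1, was bright, at 7.89, 7.82 and 7.95 in DMSO and 7.78, 7.77 and 7.91 in CA, and its groups overlapped. Its difference was -0.07 (95% confidence interval -0.21 to 0.08), so a rise of the size fitted for HEY1 lies outside that interval on the RMA scale. HES4 read 5.33, 5.36 and 5.41 in DMSO and 5.33, 5.24 and 5.36 in CA. Its difference was -0.06 (95% confidence interval -0.18 to 0.06), and its single probe set, 227347_x_at, is of the kind that can bind several unrelated transcripts. After 3′ control scaling the values were 0.13 for HES6 and 0.14 for HES4.

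Within the ID family the signals of ID2 differed most between the groups. ID2, an E protein antagonist, read 6.14, 6.14 and 6.02 in DMSO and 6.67, 6.48 and 6.45 in CA on 201565_s_at. The groups did not overlap, and CA array 1 was the highest. The difference was 0.44 (95% confidence interval 0.26 to 0.61; limma adjusted p = 0.169), or 1.35-fold, and 0.37 without CA array 1.

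The second ID2 probe set, 201566_x_at, is, like that of HES4, of the kind that can bind several unrelated transcripts. It read 4.46, 4.38 and 4.20 in DMSO and 4.76, 4.42 and 4.65 in CA. Here CA array 2 lay below DMSO array 1, so the groups overlapped. The difference was 0.27 (95% confidence interval 0.01 to 0.52; limma adjusted p = 0.515).

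ID1 gave the brightest signal of the 10 genes, above 96.3% of all probe sets. It read 9.73, 9.59 and 9.71 in DMSO and 9.85, 9.77 and 9.86 in CA, so all CA arrays were higher, by a narrow margin. The difference was 0.15 (95% confidence interval 0.02 to 0.28; limma adjusted p = 0.473), or 1.11-fold. The intervals of ID1 and of ID2 201565_s_at overlap only between 0.26 and 0.28, and the difference between the genes was not tested.

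ID3, with the only tested ID probe set that had a fitted difference below 0, varied widely within both groups. It read 4.80, 5.07 and 5.13 in DMSO and 4.92, 4.65 and 5.09 in CA, and the groups overlapped in part: CA array 2 lay below every DMSO array and DMSO array 3 above every CA array. The difference was -0.12 (95% confidence interval -0.43 to 0.20), an interval that holds the values of ID1 and does not hold that of ID2 201565_s_at. Without CA array 2 it was 0.00.

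ID4 was read by 5 probe sets, of which 1 passed the filter. That one, 209293_x_at, read 4.69, 4.52 and 4.59 in DMSO and 4.71, 4.81 and 4.64 in CA, with overlapping groups and a difference of 0.12 (95% confidence interval -0.04 to 0.27; limma adjusted p = 0.647). The other 4 averaged 1.503 to 2.72 over the arrays, and the dimmest was brighter than 0.538% of all probe sets. The bright ID4 probe set carries the suffix for probes that can bind unrelated transcripts, and none of the other 4 rose to its signal on any array, the highest value being 2.86. Their differences lay between -0.02 and 0.07.

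**Figure D2:**
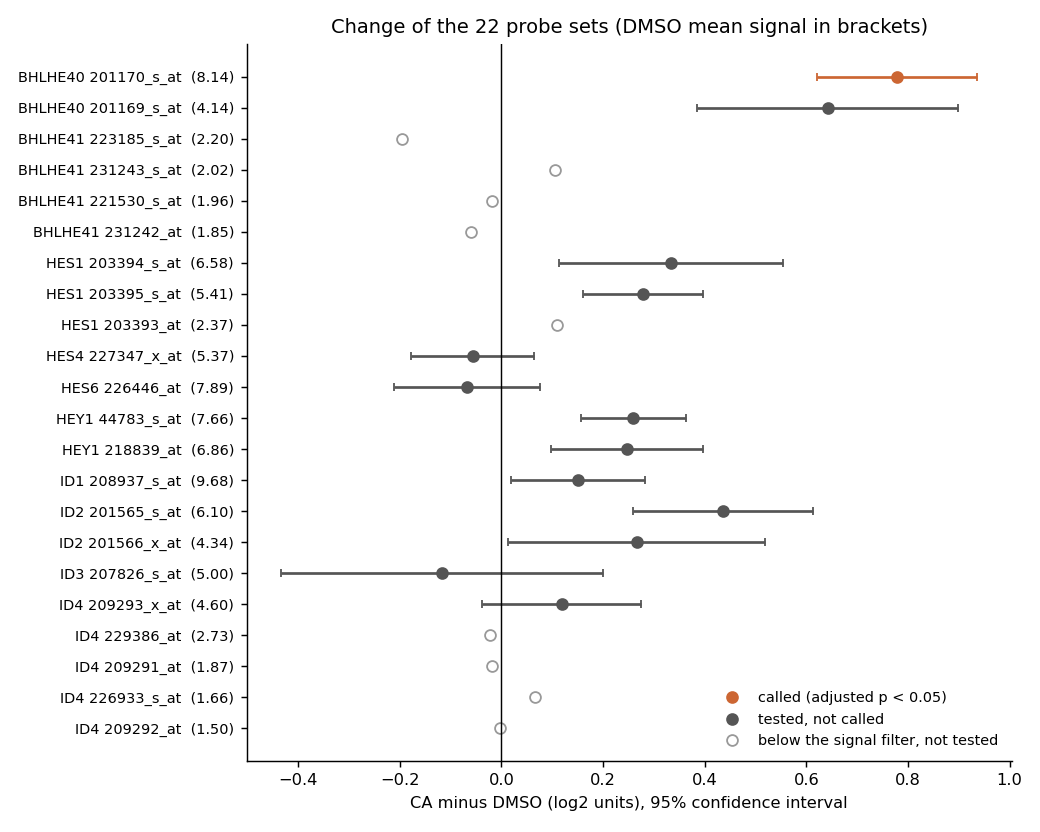
Difference between CA and DMSO (log2 units) of all 22 probe sets, with 95% confidence intervals for the 13 tested and open circles for the 9 too dim to test; the DMSO mean signal stands in brackets. BHLHE40 201170_s_at, in orange, is the only one called, at 0.78; HES6, HES4 and ID3 lie below 0 on the RMA scale and above 0 after 3′ control scaling.

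By the brightest probe set of each gene, the order of signals in DMSO was ID1 (9.68), BHLHE40 (8.14), HES6 (7.89), HEY1 (7.66), HES1 (6.58), ID2 (6.10), HES4 (5.37), ID3 (5.001), ID4 (4.601) and BHLHE41 (2.20). The DMSO arrays of each gene did not overlap with those of the next in this order. Probe sets bind with different strength, so this is an order of signals and not of transcript amounts. Among the CA arrays, CA array 1 gave the highest reading for 7 of the 13 tested probe sets, CA array 2 for 2 and CA array 3 for 4. Without CA array 1 the median change of the 13 was 0.21.

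**Figure D3:**
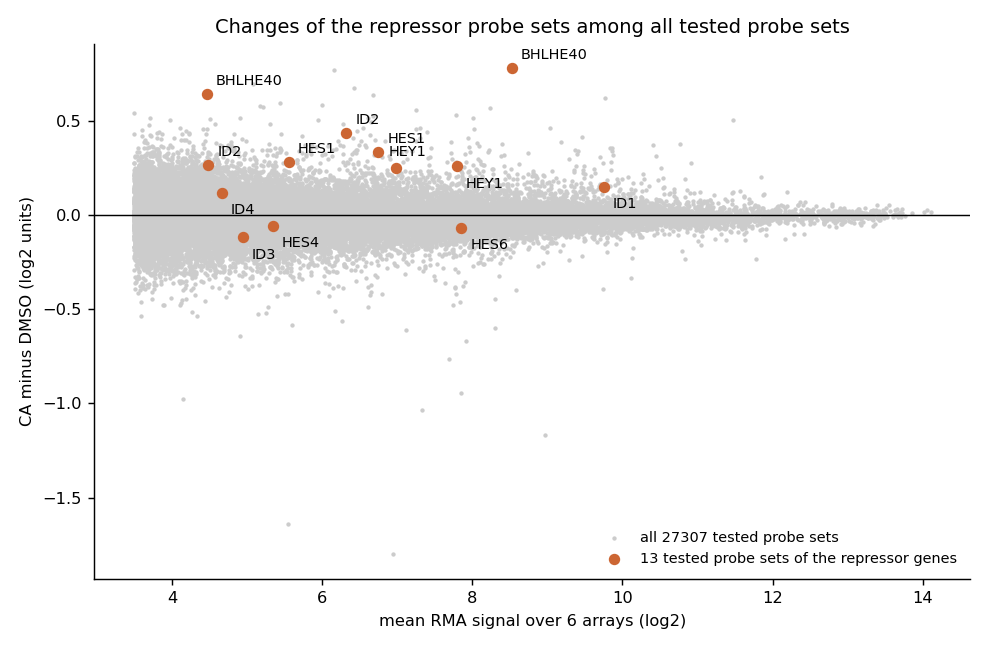
Difference between CA and DMSO (log2 units) against the mean signal over the 6 arrays (log2) for all 27307 tested probe sets in grey and the 13 of the repressor genes in orange. The BHLHE40 point at 0.78 is the highest of all, and those of HES4, HES6 and ID3, at -0.06, -0.07 and -0.12, lie inside the grey band.

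The genes whose signals over the 6 arrays were most like those of BHLHE40 201170_s_at, by Pearson correlation among the brightest tested probe sets of other genes, were GTF2E1, MYLIP, ZFPM2, GFI1B and RIOK2, at 0.994 to 0.997. GFI1B, a zinc finger repressor of the red cell and megakaryocyte lineages, was called, with a change of 0.57 (SE 0.06, limma adjusted p = 0.0437). MYLIP, a ubiquitin ligase that degrades the LDL receptor, differed by 0.31 (SE 0.04, adjusted p = 0.0819). For HES1 203394_s_at the closest were ANKRD13C-DT, OAT, DEGS2, ELMO1 and PHKG2, at 0.989 to 0.996. For ID2 201565_s_at they were BICD1, MBNL2, TGIF1, HS3ST3A1 and MAN1A1, at 0.988 to 0.994. TGIF1, a repressor of TGF-beta signalling, differed by 0.53 (SE 0.07, adjusted p = 0.0817). These correlations rest on 6 arrays in 2 groups and were picked as the highest among 12810 genes, so they are given as a description only. A high correlation did not require a large difference between the groups, since Pearson correlation does not depend on the size of a change. OAT, at 0.995 with HES1, differed by 0.04 (SE 0.04, limma adjusted p = 0.823). Among the repressors, the brightest probe set of BHLHE40 correlated with those of HEY1 at 0.94, ID2 at 0.93 and HES1 at 0.92. With ID1 it correlated at 0.80, ID4 at 0.59, ID3 at -0.25, HES4 at -0.47 and HES6 at -0.49, on the same 6 arrays. BHLHE40, HES1 and ID2 were chosen as higher in CA, so these values too are a description only.

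Protein-coding neighbours on the chromosome did not pass the test. Next to BHLHE40, ITPR1 differed by 0.11 (SE 0.05, limma adjusted p = 0.562) and the second neighbours SETMAR and EDEM1 by -0.01 and 0.00. On either side of ID2, RNF144A differed by -0.02 and KIDINS220 by -0.03. The neighbours of HES1 that were measured, OPA1 and LRRC15, differed by 0.06 and -0.13 and are second neighbours. The neighbours were looked up in the RefSeq table of GRCh38.p14, a comparison added after the data were seen.

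The partners and pathways of these repressors were read from 5 gene lists, each gene by its brightest tested probe set. Among all 12810 measured genes 11 were called (0.0859%), 3.59% were higher and 5.02% lower in CA at an unadjusted p under 0.05, and the median change was -0.01. By limma 0 genes of the 5 lists were called, and 11 had an unadjusted p under 0.05.

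Of 12 measured helix-loop-helix partners and further family members, 3 were higher and 0 lower at an unadjusted p under 0.05, and the median was -0.03. LMO2, the bridging protein of the erythroid complex of TAL1 and GATA1, differed by 0.36 (SE 0.05, limma adjusted p = 0.0997). TAL1 itself differed by 0.22 (SE 0.04, adjusted p = 0.232), and MYOD1, a muscle factor at a low signal of 4.61 in DMSO, by 0.25 (SE 0.07, adjusted p = 0.350). With the filter at the 75th percentile, or with a prior variance that follows the signal, LMO2 and TAL1 were called upward. Under these settings 1.19% and 1.04% of all tested probe sets were called. The E proteins that ID proteins capture showed differences of -0.01 for TCF3, -0.07 for TCF4 and -0.06 for TCF12. The other measured HES and HEY genes, HES2, HES7 and HEYL, had -0.02, 0.02 and -0.12. These 6 genes had adjusted p of 0.738 or more.

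Of 8 measured Groucho-type corepressors and their deacetylases 0 had an unadjusted p under 0.05. The median was -0.03, the lowest adjusted p was 0.659, and HDAC2, the brightest, differed by -0.04. TLE3 and TLE4, which bind the tails of HES proteins, had -0.06 and -0.08.

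In the Notch pathway 1 of 23 measured genes was higher and 1 lower at an unadjusted p under 0.05, with a median of -0.02. MAML2, a coactivator of the Notch complex, differed by 0.35 (SE 0.07, limma adjusted p = 0.232), and the receptor NOTCH1 by -0.18 (SE 0.05, adjusted p = 0.391). RBPJ, the DNA-binding effector, had -0.06, NRARP, a feedback target of Notch, -0.01, and ADAM10, the brightest, -0.03.

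In the BMP and SMAD pathway 1 of 17 was higher and 1 lower, with a median of -0.02. BAMBI, a decoy receptor, differed by 0.19 (SE 0.04, limma adjusted p = 0.287) and SMAD6, an inhibitor and target of BMP signalling, by -0.19 (SE 0.06, adjusted p = 0.395). SMAD5, the brightest, had -0.02. The effectors SMAD1 and SMAD9 and the ligands BMP2 and BMP4 were below the filter.

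Of 14 measured clock genes 1 was higher and 3 lower at an unadjusted p under 0.05, and the median was 0.03. PER2, a clock repressor driven through E-boxes, differed by 0.21 (SE 0.07, limma adjusted p = 0.395). NPAS2, a relative of CLOCK, had -0.25 (SE 0.05, adjusted p = 0.249), the kinase CSNK1D -0.25 (SE 0.07, adjusted p = 0.366) and the repressor NFIL3 -0.22 (SE 0.05, adjusted p = 0.281). CLOCK had -0.06 and CRY1, the brightest, -0.04, while BMAL1 was below the filter. After 3′ control scaling the medians of the 5 lists lay between 0.16 and 0.23, beside 0.19 for all tested probe sets.

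**Figure D4:**
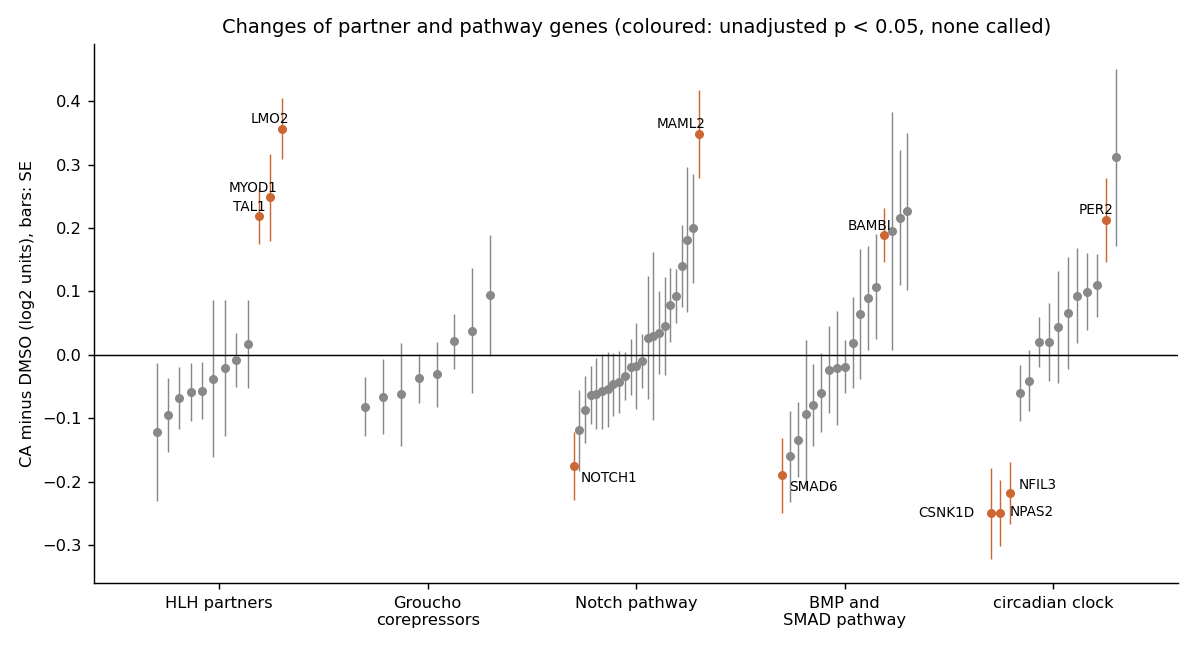
Difference between CA and DMSO (log2 units, bars SE) of each measured gene in the 5 partner and pathway lists, sorted within each list; genes at an unadjusted p under 0.05 are coloured and named, and none was called. LMO2 at 0.36 and MAML2 at 0.35 are the highest of these genes; after 3′ control scaling 0.20 would be added to every point, which would place all but those near -0.25 or -0.22 at or above 0.

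**Figure D5:**
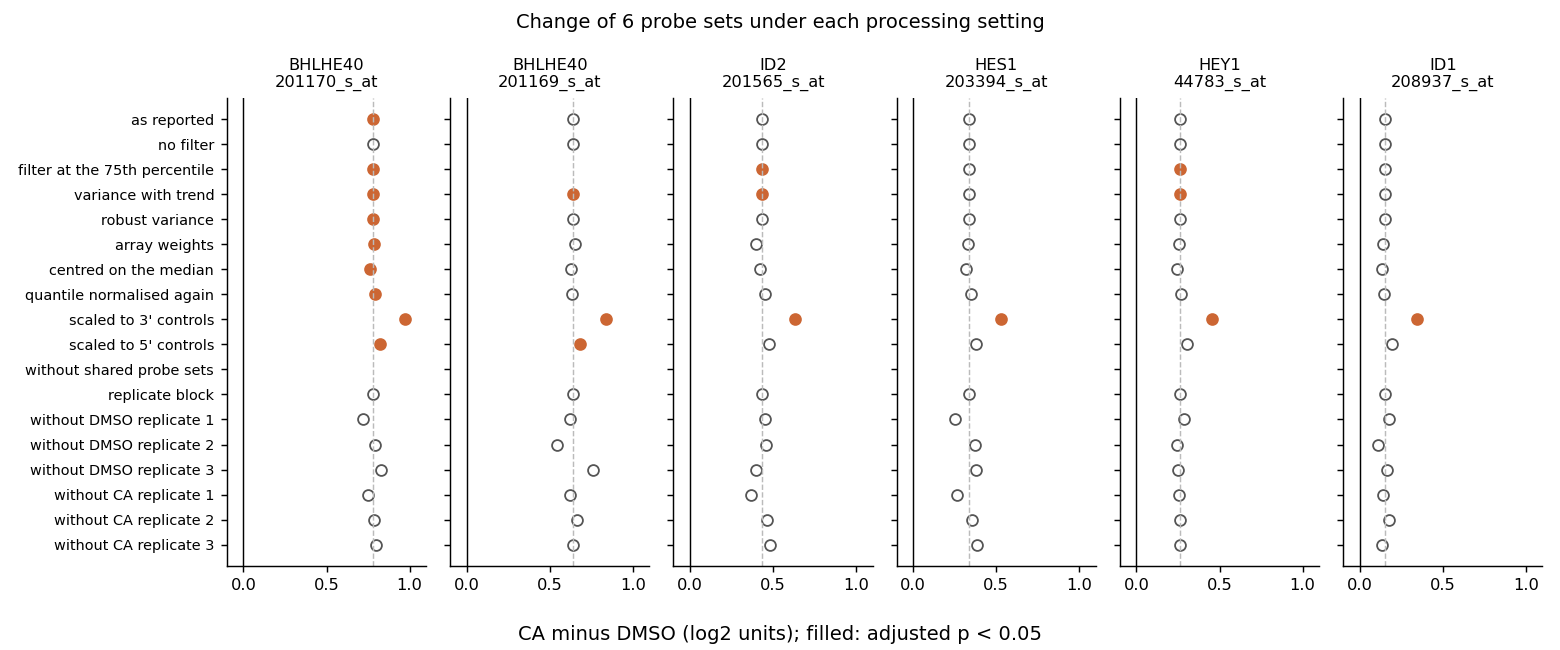
Difference between CA and DMSO (log2 units) of 6 repressor probe sets under each processing setting, filled where the adjusted p was under 0.05; the dashed line is the value as reported and a missing point means that the probe set was left out. The BHLHE40 values stay between 0.72 and 0.97 for 201170_s_at. Its call is lost whenever 1 array is left out, and also with no filter and with the replicate block. ID2 201565_s_at and HEY1 44783_s_at were called under 3 settings each.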

How the data were processed

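RNA of 6 K562 wells, 3 DMSO and 3 CA, was measured on 1-colour arrays. The authors deposited 1 table of log2 values for 54675 probe sets, made with RMA in the affy package per the submitters' processing notes (versions not given in the sources used here). RMA sets all arrays to 1 distribution, so a shift common to most transcripts is not seen, and it compresses changes of dim probe sets; the number of arrays limits the precision. Here 62 control probe sets were left out, the mean signal filter was applied, and CA was compared with DMSO without a block, using limma 3.58.1 (lmFit, then eBayes) under R 4.3.3. Of the other probe sets 41091 had 1 symbol, 1801 several and 11721 none. The titles number the wells in each group, which does not settle whether same-numbered wells were paired. Deviations of same-numbered arrays from their group means correlated at -0.07, 0.01 and 0.06. With 3 arrays per group these values cannot settle it either. The genes, the 5 lists and the tests were chosen with earlier results of these data known. Named were all repressor probe sets, list genes at an unadjusted p under 0.05 or the brightest of a list, and the 5 genes most like BHLHE40, HES1 and ID2; list genes named beyond these were chosen after their values were seen. Alternatives changed the filter, variance model, weights, normalisation, control scaling, shared probe sets, block, gene summary and arrays.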

Additional observations from a re-analysis of the deposited data

How the results depend on the processing

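Changes of the tested repressor probe sets kept their direction under the alternatives that could be fitted, except HES4 (0.14), HES6 (0.13) and ID3 (0.0790) after scaling to 3′ controls, and ID3 with an array left out (-0.22 to 0.000273). Calls depended on the setting more than the changes did; the cause was not tested. Of repressor probe sets 1 was called as reported, against 26 of all probe sets (14 higher, 12 lower). With no filter these numbers were 0 and 5 (8 repressor probe sets at an unadjusted p under 0.05). A filter at the 75th percentile gave 3 and 162, a variance trend 4 and 285, and robust variance 1 and 17. Scaled to 3′ controls they were 9 and 3691 (3675 higher, 16 lower), scaled to 5′ controls 2 and 28. Without shared probe sets, where 2 repressor probe sets remain, they were 0 and 1, with 1 repressor probe set at an unadjusted p under 0.05. With the replicate block limma called 0 and 0, with 9 and 2485 at an unadjusted p under 0.05. With that block the number of called genes changed in 0 of the 5 lists. Genes at an unadjusted p under 0.05 went, with the block, from 2 to 4 in the Notch list and from 2 to 3 in the BMP and SMAD list. With each array left out the called repressor probe sets were 0 to 0 and all called probe sets 2 to 5. In these fits 7 to 9 repressor probe sets had an unadjusted p under 0.05.

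Helix-loop-helix partners called were 0 as reported, 2 with the filter at the 75th percentile, 2 with trend and 3 scaled to 3′ controls. Notch genes called were 1 with trend and 6 scaled to 3′ controls, BMP and SMAD genes 1 and 3. Groucho genes called numbered 1 and clock genes 2 when scaled to 3′ controls. In the other settings run, leaving out arrays included, limma called 0 genes of the 5 lists. Probe sets near or below the filter carry little signal over background, which limits BHLHE41 and 4 of the 5 ID4 probe sets most. Of the tested repressor probe sets the dimmest were BHLHE40 201169_s_at and ID2 201566_x_at, with means over the arrays of 4.46 and 4.48.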
